A study of Mus musculus with 9 samples.

Results

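Gastrocnemius muscle of newborn mice was found to carry transcripts of cartilage, of bone-forming cells and of bone-resorbing cells, and the levels of these skeletal transcripts are described here mouse by mouse. The list holds 34 of the 55471 genes in the count table: 14 cartilage genes, 12 genes of osteoblasts and osteocytes, and 8 genes of osteoclasts and matrix resorption. Its members were chosen from results of these same counts, so their levels and their differences between genotypes are given as a description and nothing is supported with them. The study compared 5 Shank3Δ11(-/-) mice, which lack exon 11 of the synaptic scaffold gene Shank3, with 4 Shank3(+/+) mice. The labels give the strain background as C57BL/6 for all of them, an age of postnatal day 0 to 1 and no treatment. Per the methods of the study the Shank3Δ11(-/-) mice came from heterozygous matings on C57BL/6JRj. Each mouse gave 1 library of RNA from the dissected calf muscle. Mice are named as in the table, KO1 to KO5 and WT1 to WT4. The genotypes were compared with the mice that the study kept, KO1, KO3, KO5 and all 4 wildtype mice. The comparison was then run with KO2 and KO4 added. The study set these mice aside for too few reads, and its supplement took their totals of mapped reads as a sign of lower library quality. In the count table, however, KO4 was the deepest library, with 40471957 counts, and KO2, with 28211941, had more than KO5, with 26444372.

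Bones of the limb form on a cartilage model. Chondrocytes lay down a matrix of type II, IX and XI collagen and of the proteoglycan aggrecan, enlarge and switch to type X collagen, and are then replaced by osteoblasts, which secrete bone matrix and end as osteocytes embedded in it. Osteoclasts, large cells fused from precursors of the macrophage lineage, dissolve mineral with acid and digest matrix with proteases. The gastrocnemius runs from the femur to the heel bone, and muscle fibres themselves are not known as a main source of most of these transcripts. In RNA of whole tissue, fewer cells of a type and less RNA per cell cannot be told apart, and the labels do not record how much adjoining tissue was taken with the muscle.

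The libraries held 26444372 to 40471957 counts, with a median of 31435732. The muscle label was checked with 12 muscle genes such as Acta1 and Ckm, whose summed level was 64375 to 72976 CPM (counts per 1000000 of the library, with TMM factors from edgeR) in the 9 mice. Shank3 itself was counted at 25.7 to 34.8 CPM in Shank3Δ11(-/-) and 32.7 to 38.6 CPM in Shank3(+/+), and a count over the whole gene does not check the loss of exon 11. The labels give no sex. Xist, the transcript of the inactive X chromosome, exceeded 100 CPM in 4 mice, WT3, WT4, KO3 and KO5, and did not exceed 3.21 CPM in any other. A filter on low counts kept 21809 genes in the 7 mice, among them 30 of the 34 members, and 21735 genes in the 9 mice, among them 31. Matn1, Mepe and Sost failed it in both sets and Dcstamp in the 7 mice.

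The main feature of the list was the division of the mice in the bone genes. The 12 osteoblast and osteocyte genes summed to 14.5 CPM in KO3 and 13.3 CPM in KO5. In the other Shank3Δ11(-/-) mice the sum was 296 CPM in KO1, 169 CPM in KO2 and 252 CPM in KO4, and in Shank3(+/+) it ranged from 124 to 194 CPM. KO3 and KO5 therefore lay below all wildtype mice, while KO1 and KO4 lay above them. The 8 osteoclast genes divided the mice in the same places, at 46.0 CPM in KO3 and 55.1 CPM in KO5 against 87.6 to 117 CPM in Shank3(+/+) and 119 to 131 CPM in KO1, KO2 and KO4. Most of that sum was 1 gene, Ctsk, at 43.1 CPM in KO3, 46.8 CPM in KO5 and 52.0 to 77.8 CPM in Shank3(+/+). The 14 cartilage genes did not follow this division. They summed to 756 CPM in KO4 and to between 196 and 399 CPM in the other 8 mice, with KO3 at 266 CPM and KO5 at 196 CPM.

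**Figure D1:**
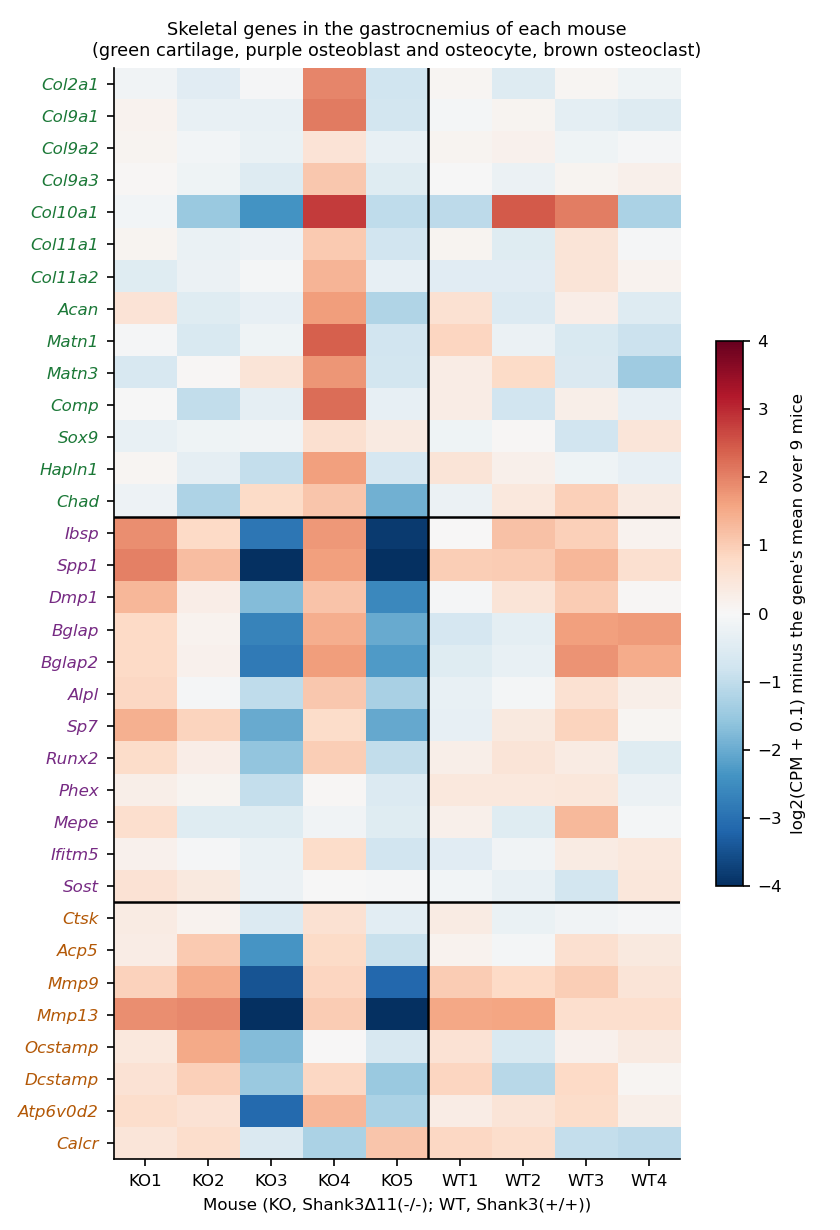
Each row is 1 of the 34 genes and each column 1 mouse, and the colour is log2(CPM + 0.1) minus the mean of that gene over the 9 mice. Most osteoblast, osteocyte and osteoclast rows are blue in KO3 and KO5, and the cartilage rows are red in KO4.

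KO3 and KO5 were the 2 lowest of the 9 mice in 9 of the 10 osteoblast and osteocyte genes tested, in 7 of the 8 osteoclast genes and in 3 of the 13 cartilage genes. In all this was the order in 19 of 31 members, or 61.3%. Over all genes tested it was the order in 413 of 21735, or 1.9%. The exceptions were Ifitm5 among the osteoblast genes and Calcr among the osteoclast genes.

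Among the bone matrix proteins, Spp1 (osteopontin, a phosphoprotein made by osteoblasts, osteoclasts and activated macrophages) had the highest level per length of the list, 56.8 CPM per kilobase of exon in Shank3(+/+). Spp1 (ENSMUSG00000029304, chromosome 5 from 104435118 to 104441050) was at 188 CPM in KO1, 110.0 CPM in KO2, 2.21 CPM in KO3, 145 CPM in KO4 and 1.91 CPM in KO5, and at 91.9, 93.3, 116 and 73.1 CPM in WT1 to WT4. KO3 and KO5, with 70 and 51 counts, were far below every other mouse, while KO1 and KO4 were above the wildtype range and KO2 was inside it. Of the exon bases of Spp1, 18.8% are shared with Gm42793 on the same strand, so its count is uncertain by that overlap. Ibsp (bone sialoprotein) was at 60.6 CPM in KO1, 29.2 CPM in KO2, 2.17 CPM in KO3, 55.9 CPM in KO4 and 1.09 CPM in KO5, against 16.8, 37.8, 32.0 and 18.2 CPM in WT1 to WT4. Dmp1 (dentin matrix protein 1, an osteocyte phosphoprotein) was at 12.2, 5.72, 1.39, 10.7 and 0.713 CPM in KO1 to KO5 and at 4.68 to 9.88 CPM in Shank3(+/+). Both genes had KO1 highest and KO5 lowest of the 9 mice, as Spp1 did. Mepe, a phosphoprotein of osteocytes, had at most 7 counts in any mouse. Dmp1, Ibsp, Mepe and Spp1 stand side by side on chromosome 5 within 238 kb (GRCm38, 104202613 to 104441050).

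Osteocalcin, a calcium-binding protein secreted by mature osteoblasts, is encoded in the mouse by Bglap and its neighbour Bglap2. Bglap was at 2.70, 1.69, 0.158, 4.36 and 0.30 CPM in KO1 to KO5 and at 0.924, 1.15, 4.96 and 5.26 CPM in WT1 to WT4. Bglap2 was at 2.32, 1.46, 0.0945, 4.33 and 0.188 CPM in KO1 to KO5 and at 0.893, 1.03, 4.72 and 3.82 CPM in WT1 to WT4. KO3 and KO5 were again the lowest, and here the wildtype mice also parted, WT3 and WT4 above WT1 and WT2. The main transcripts of both genes are 92.1% identical over 471 aligned positions and 74.7% of the 50-base windows of Bglap occur in Bglap2, so the division of reads between them is uncertain.

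Of the enzymes and factors of the osteoblast, Alpl (tissue-nonspecific alkaline phosphatase, which frees phosphate for mineral) was at 11.4, 6.23, 3.15, 13.9 and 2.55 CPM in KO1 to KO5 and at 5.24 to 9.95 CPM in Shank3(+/+). Sp7 (osterix, a transcription factor needed for osteoblast formation) was at 4.67, 3.25, 0.347, 2.87 and 0.338 CPM in KO1 to KO5 and at 1.32 to 3.20 CPM in Shank3(+/+). Runx2, the factor that acts before Sp7 and also drives chondrocyte enlargement, was at 5.11, 3.73, 0.945, 6.11 and 1.5 CPM in KO1 to KO5 and at 2.15 to 4.38 CPM in Shank3(+/+). All of these had KO3 and KO5 below the wildtype range. Runx2 shares 5.9% of its exon bases with Runx2os1 on the opposite strand, as Col9a3 does 6.1% with Tcfl5 and Acp5 6.7% with 6530413G14Rik, and reads of such partners cannot be told apart where the counting ignored strand. The gap was narrower than in the matrix proteins: the highest mouse stood 98.6-fold above the lowest in Spp1, 55.7-fold in Ibsp, 13.8-fold in Sp7, 6.46-fold in Runx2 and 5.44-fold in Alpl.

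Phex, an endopeptidase of osteocytes that limits phosphate loss, varied least of the osteoblast and osteocyte genes tested, by 2.69-fold. It was at 6.56, 5.96, 2.83, 5.72 and 3.75 CPM in KO1 to KO5 and at 7.46, 7.46, 7.64 and 4.70 CPM in WT1 to WT4. Ifitm5, a membrane protein of osteoblasts, was at 0.713 to 2.17 CPM in Shank3Δ11(-/-) and 0.893 to 1.73 CPM in Shank3(+/+), and KO3 at 1.04 CPM was within the wildtype range. Ifitm5 shares 29.7% of its exon bases with Gm45717 on the same strand. Sost, an osteocyte inhibitor of Wnt signalling, had 3 to 13 counts in each mouse.

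**Figure D2:**
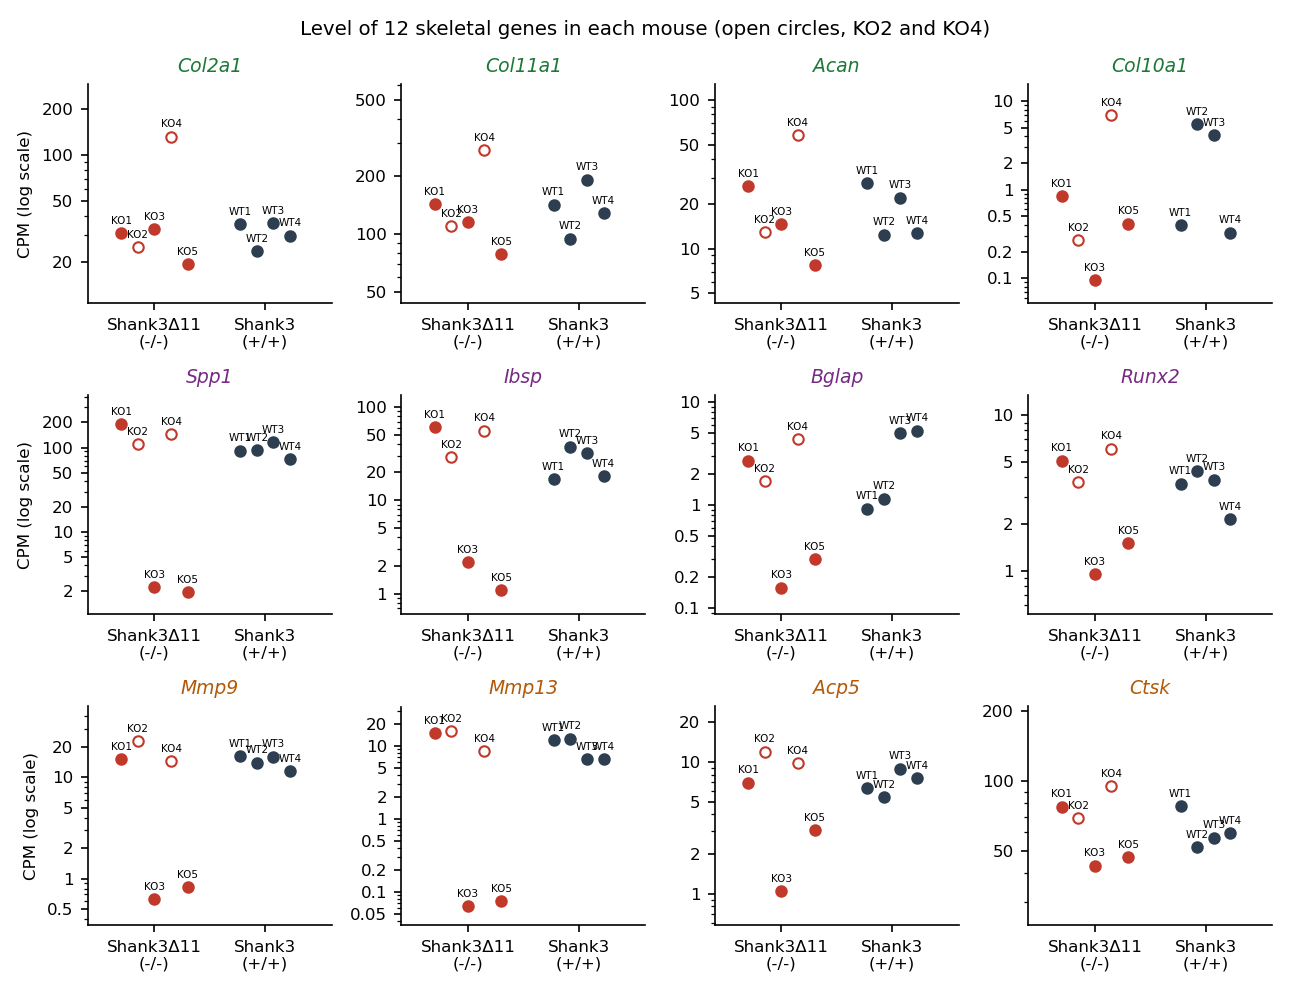
Points give the CPM of 12 genes in each mouse on logarithmic axes, filled for the 7 mice of the main comparison and open for KO2 and KO4. In Spp1, Ibsp, Mmp9 and Mmp13 the points of KO3 and KO5 stand well below those of the 7 other mice, while in Col2a1, Col11a1 and Acan KO4 stands above the rest.

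The osteoclast genes were led in level by Ctsk (cathepsin K, the collagen-digesting protease of osteoclasts, also made by fibroblasts), at 40.8 CPM per kilobase in Shank3(+/+). Ctsk was at 77.6, 69.4, 43.1, 95.2 and 46.8 CPM in KO1 to KO5 and at 52.0 to 77.8 CPM in Shank3(+/+). KO3 and KO5 were the lowest mice here too, but by a small margin, and the whole range was 2.21-fold. Acp5 (tartrate-resistant acid phosphatase, the classic osteoclast stain) was at 6.96, 12, 1.04, 9.79 and 3.04 CPM in KO1 to KO5 and at 5.41 to 8.92 CPM in Shank3(+/+).

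The secreted metalloproteinases set KO3 and KO5 far apart. Mmp9 (gelatinase B, released by osteoclasts and by neutrophils) was at 15.2, 22.6, 0.630, 14.5 and 0.825 CPM in KO1 to KO5 and at 16.2, 14.0, 15.9 and 11.5 CPM in WT1 to WT4. Mmp13 (collagenase 3, made by enlarging chondrocytes and by osteoblasts, placed here for its part in matrix resorption) had 2 counts in KO3 and 2 counts in KO5. That is 0.0630 CPM in KO3 (95% exact binomial interval 0.00763 to 0.228) and 0.0750 CPM in KO5 (0.00909 to 0.271), intervals that cover counting error only. Mmp13 (ENSMUSG00000050578, chromosome 9 from 7272514 to 7283331) was at 15 CPM in KO1, 15.8 CPM in KO2 and 8.46 CPM in KO4, and at 12.1, 12.6, 6.64 and 6.53 CPM in WT1 to WT4. For neither protease did KO3 or KO5 come near the other 7 mice.

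The genes of osteoclast fusion and acid secretion were low throughout. Dcstamp, a membrane protein that precursors need to fuse, had 0 counts in KO3 and KO5, which at 3 counts per library allows up to 0.0945 and 0.112 CPM, and 1 to 15 counts in the other mice. Ocstamp, a second fusion protein, had 0 counts in KO3 and 3 in KO5, and 4 to 25 in the other mice. Atp6v0d2, a subunit of the proton pump, had 0 counts in KO3 and 7 in KO5, against 28 to 80 in the other mice, or 0.914 to 2.09 CPM. Calcr, the calcitonin receptor, which satellite cells of muscle also express, went its own way: it was at 2.51, 2.98, 1.17, 0.679 and 3.98 CPM in KO1 to KO5 and at 3.20, 2.93, 0.861 and 0.816 CPM in WT1 to WT4. KO5 was the highest mouse in Calcr and KO4 the lowest.

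The promoters of Spp1, Bglap and Mmp13 are shown because these are genes of the osteoblast matrix, of mature osteoblasts and of matrix resorption that were at their lowest in the same mice. The 250 bases before each RefSeq start are given 5′ to 3′ on the strand of the gene (GRCm38.p6), at chr5:104434861-104435110 (plus) for Spp1, chr3:88384467-88384716 (minus) for Bglap and chr9:7272264-7272513 (plus) for Mmp13, with capitals for the letters ACCACA, the core bound by RUNX factors, and in Mmp13 also for TGANTCA, the AP-1 motif.
Spp1: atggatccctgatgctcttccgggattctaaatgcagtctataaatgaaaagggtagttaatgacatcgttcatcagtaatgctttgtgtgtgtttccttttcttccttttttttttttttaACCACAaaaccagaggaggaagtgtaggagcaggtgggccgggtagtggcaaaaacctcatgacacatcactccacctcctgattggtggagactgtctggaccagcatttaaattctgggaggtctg
Bglap: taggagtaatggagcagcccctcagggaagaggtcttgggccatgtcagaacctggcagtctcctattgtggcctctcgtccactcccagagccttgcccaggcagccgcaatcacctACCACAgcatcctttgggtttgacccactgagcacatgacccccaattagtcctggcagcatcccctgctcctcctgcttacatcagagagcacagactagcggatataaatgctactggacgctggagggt
Mmp13: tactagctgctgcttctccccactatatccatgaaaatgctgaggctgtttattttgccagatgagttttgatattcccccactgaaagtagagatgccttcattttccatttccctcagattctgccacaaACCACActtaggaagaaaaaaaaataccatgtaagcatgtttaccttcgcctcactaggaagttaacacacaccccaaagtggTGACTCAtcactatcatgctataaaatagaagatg
The RUNX core begins 128 bases before the start in Spp1, 132 in Bglap and 118 in Mmp13, and the AP-1 motif begins 35 bases before the start of Mmp13. Promoters of 24 of the 34 genes were matched in the RefSeq table by symbol, and ACCACA was searched on both strands. It was present in 8 of the 31 promoters of these 24 genes, 1 each of Bglap, Dmp1, Hapln1, Matn1, Mepe, Mmp13, Runx2 and Spp1, and in 14% of all 32851 promoters of that length. AACCACA, which contains the core, was present in 5 of the 31 promoters and in 4.4% of all promoters, and TGANTCA in 1 of the 31 and in 6.75% of all promoters. A match of letters is a description of the sequence and not a bound site.

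In cartilage the mouse that stood apart was KO4, the highest of the 9 mice in all 13 cartilage genes tested. It was the highest mouse in 14.4% of all genes tested. The excess of KO4 was not confined to cartilage. In lists read further below, KO4 was highest in 15 of 31 other bone-forming genes, 7 of 11 tendon genes and 5 of 12 macrophage genes. It was highest in 0 of 12 muscle, 8 erythroid and 7 adipocyte genes. Col2a1 (ENSMUSG00000022483, chromosome 15 from 97975602 to 98004695), the main collagen of cartilage, was at 132 CPM in KO4 and at 30.9, 24.9, 32.8 and 19.3 CPM in KO1, KO2, KO3 and KO5, against 35.3, 23.4, 36.0 and 29.7 CPM in WT1 to WT4. Apart from KO4 the groups overlapped. Among the chains of type IX collagen, which sits on the surface of type II fibrils, KO4 was at 10.5 CPM in Col9a1 against 1.42 to 2.70 CPM in the other mice and at 11.6 CPM in Col9a3 against 3.78 to 6.30 CPM. In Col9a2 it was at 15.5 CPM against 8.59 to 11.9 CPM. Of the type XI chains, Col11a1 was at 274 CPM in KO4 and 79.0 to 192 CPM in the others, and Col11a2 at 197 CPM in KO4 and 54.9 to 110.0 CPM in the others.

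The proteins that join these fibrils showed the same mouse on top. Acan (aggrecan) was at 57.5 CPM in KO4, 26.4 CPM in KO1, 12.9 CPM in KO2, 14.6 CPM in KO3 and 7.76 CPM in KO5, and at 27.6, 12.4, 22.0 and 12.7 CPM in WT1 to WT4. Hapln1, which links aggrecan to hyaluronan, was at 14.9 CPM in KO4 and 2.39 to 6.87 CPM in the others, and Comp, a matrix protein of cartilage and tendon, at 19.1 CPM in KO4 and 1.96 to 4.90 CPM in the others. The matrilins, adaptor proteins of the cartilage matrix, were scarce, with Matn1 at 69 counts in KO4 and 3 to 18 in the others and Matn3 at 42 counts in KO4 and 1 to 17 in the others. Chad (chondroadherin, a leucine-rich matrix protein that binds cells) ranged from 0.488 CPM in KO5 to 4.70 CPM in KO4, with 1.79 to 4.23 CPM in Shank3(+/+).

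Sox9, the transcription factor of chondrocytes that is also made in tendon and other connective tissue, ranged from 3.37 CPM in WT3 to 8.98 CPM in KO4. It was at 5.26 CPM in KO3 and 7.43 CPM in KO5, inside the wildtype range of 3.37 to 8.13 CPM. Col10a1, the collagen of enlarged chondrocytes, had a pattern of its own. Its level was 7.02 CPM in KO4, 5.53 CPM in WT2 and 4.17 CPM in WT3, and 0.0945 to 0.847 CPM in the other 6 mice, so that both genotypes held high and low mice.

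Against this spread between mice, the genotypes were compared over all genes with a 2-sided quasi-likelihood test in edgeR and Benjamini-Hochberg adjustment (FDR). In the 7 mice 28 of the 30 members tested were lower in Shank3Δ11(-/-) and 2 were higher, Sox9 and Calcr, with a median log2 fold change of -0.33 against -0.01 over all genes. Over the same 30 genes the median was -0.98 without KO1, -0.12 without KO5 and -0.64 in limma-voom. At an unadjusted p below 0.05, 0 members were higher and 1 was lower. Over all genes tested 1.16% were higher and 0.917% lower at that threshold. At the study's threshold, p below 0.05 with FDR below 25%, 0 members and 0% of all genes were called. The study, which used limma, did report differentially expressed genes at that threshold, so the results differ. The cause of that difference was not tested. The member past the unadjusted threshold was Phex, which averaged 4.38 CPM (SD 1.94, n = 3) in Shank3Δ11(-/-) against 6.81 CPM (SD 1.41, n = 4) in wildtype mice. Its log2 fold change was -0.63 with a standard error of 0.28 and an edgeR FDR of 1.00.

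The largest fold change of the list in this edgeR fit of the 7 mice was that of Col10a1, a log2 value of -2.52 with a standard error of 1.19, which did not pass the unadjusted threshold and was -0.53 with all 9 mice. Spp1 averaged 64.2 ± 108 CPM (SD, n = 3) in the Shank3Δ11(-/-) mice against 93.6 ± 17.5 CPM (SD, n = 4) in the wildtype mice, which is a log2 fold change of -0.55 with a standard error of 1.58. Mmp13 averaged 5.04 ± 8.62 CPM (n = 3) against 9.46 ± 3.32 CPM (n = 4), a log2 fold change of -0.90 with a standard error of 1.48. With limma-voom, which fits log values, the same mice gave -3.24 for Spp1, -4.15 for Mmp13 and -1.98 for Col10a1. It put 7 of 30 members lower at an unadjusted p below 0.05, beside 0.908% of all genes, and called 0 members and 0% of all genes. Col2a1 averaged 27.7 ± 7.32 CPM (n = 3) against 31.1 ± 5.85 CPM (n = 4), a log2 fold change of -0.17 with a standard error of 0.20. KO1 was the only Shank3Δ11(-/-) mouse of the 7 that was not low in Spp1 and Mmp13. In no member did the 3 Shank3Δ11(-/-) mice all lie on one side of the 4 wildtype mice, which over all genes tested happened in 1.44% with Shank3Δ11(-/-) lower and in 1.4% with it higher.

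With KO2 and KO4 added, 18 of 31 members were higher and 13 lower, and the median log2 fold change was 0.06. In the 9 mice 0 members passed an unadjusted p below 0.05 in either direction, beside 1.16% of all genes higher and 0.874% lower, and 0% of all genes were called at the study's threshold by edgeR. Of the 30 members, 16 changed sign between the 7 and the 9 mice, 10 of the 13 cartilage genes among them. No member had all 5 Shank3Δ11(-/-) mice on one side of the wildtype mice (0.419% of all genes with them lower, 0.285% with them higher).

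Leaving out KO1 from the 7 mice changed how the bone and osteoclast genes compared. KO2 and KO4, whose osteoblast and osteocyte genes summed to 169 and 252 CPM, were not in that fit either. Without KO1, which leaves KO3 and KO5 and the 4 wildtype mice, 18 of 31 members were lower at an unadjusted p below 0.05 and 0 were higher, beside 2.07% and 2.28% of all genes. At the study's threshold 6 members were then called, of 15 genes or 0.0674% of all genes tested: Spp1 (log2 fold change -5.49, standard error 0.24, edgeR FDR = 2.05e-05), Mmp9 (-4.30, standard error 0.25, FDR = 1.93e-04), Mmp13 (-7.02, standard error 0.55, FDR = 0.00129), Ibsp (-3.98, standard error 0.48, FDR = 0.0813), Dmp1 (-2.63, standard error 0.40, FDR = 0.141) and Sp7 (-2.63, standard error 0.44, FDR = 0.227). These values rest on leaving out a mouse in which the same genes were at or above the wildtype level, and the list was drawn up with that known.

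**Figure D3:**
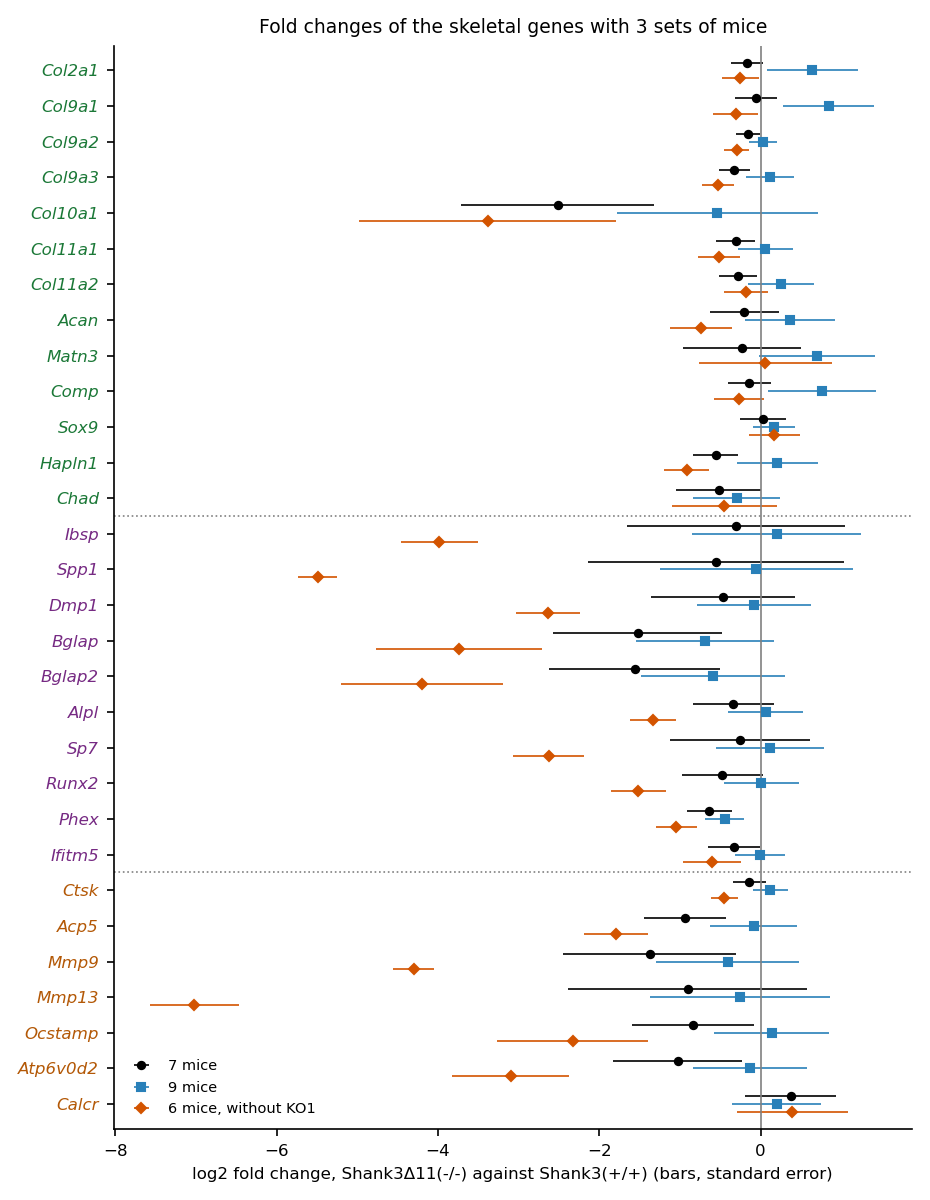
Points give the log2 fold change of Shank3Δ11(-/-) against Shank3(+/+) with its standard error for the 30 members tested, in the 7 mice, in all 9 mice and in 6 mice without KO1. Only without KO1 do Spp1, Ibsp, Mmp9 and Mmp13 lie several standard errors below 0, and the cartilage genes move to the right when KO4 is added.

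The level of each class, taken as the mean over its genes of log2 CPM relative to the 9 mice, shows the same spread. In the osteoblast class it was 0.99 in KO1, 0.31 in KO2, -1.81 in KO3, 0.94 in KO4 and -1.83 in KO5, and -0.03, 0.19, 0.86 and 0.39 in WT1 to WT4. The mean of the 7-mouse groups was -0.88 ± 1.62 (SD, n = 3) for Shank3Δ11(-/-) against 0.35 ± 0.38 (SD, n = 4) for wildtype, so the difference of -1.24 was smaller than the spread within Shank3Δ11(-/-). The osteoclast class was at -1.07 ± 1.65 (n = 3) and 0.38 ± 0.27 (n = 4), a difference of -1.46. The osteoblast and osteoclast differences were -0.63 and -0.69 with all 9 mice, and -2.17 and -2.37 in the 7 mice without KO1. The cartilage class was at -0.36 ± 0.32 (n = 3) and -0.01 ± 0.22 (n = 4), a difference of -0.36 that became 0.015 with all 9 mice.

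Variation between mice of a genotype, given as the biological coefficient of variation in the 7-mouse fit, was 0.456 in the median member and 0.178 in the median of all genes tested. It was 0.783 for the osteoblast genes, 0.509 for the osteoclast genes and 0.25 for the cartilage genes. Of the 30 members 18 were above the 95th percentile of all genes, led by Mmp13 at 1.42, Spp1 at 1.29 and Ibsp at 1.14. Among cartilage genes Col10a1 was the highest at 0.937 and Col9a2 the lowest at 0.159, below the median gene.

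The genotypes were also compared among mice of like Xist level, a division made after the data were seen, since the labels give no sex. Among the mice of high Xist, KO3 and KO5 against WT3 and WT4, 22 of 31 members were lower in both Shank3Δ11(-/-) mice than in both wildtype mice and 1, Calcr, was higher. With 2 mice against 2 this held for 17.1% of all genes with Shank3Δ11(-/-) lower and for 16.5% with it higher. The 22 were all 10 osteoblast and osteocyte genes tested, 7 of 8 osteoclast genes, and Col9a2, Col9a3, Col11a1, Col11a2 and Hapln1. Among the mice of low Xist, KO1, KO2 and KO4 against WT1 and WT2, 8 members were higher in every Shank3Δ11(-/-) mouse and 1, Phex, was lower, beside 7.08% and 7.55% of all genes. The 8 were Spp1, Bglap, Bglap2, Alpl, Sp7, Ifitm5, Acp5 and Atp6v0d2.

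In Spp1 the log2 difference of Shank3Δ11(-/-) from Shank3(+/+) was -5.50 (standard error 0.32) among mice of high Xist and 0.68 (standard error 0.23) among mice of low Xist. Mmp9 stood at -4.22 (standard error 0.32) and 0.21 (standard error 0.22), and Ctsk at -0.36 (standard error 0.20) and 0.32 (standard error 0.18). Phex was negative in both, at -0.89 (standard error 0.26) and -0.29 (standard error 0.22). In a fit of genotype with its interaction with Xist level over the 9 mice, 5 of 21735 genes, or 0.023%, passed an FDR of 5%, and all 5 are on the list: Spp1, Bglap, Bglap2, Mmp9 and Mmp13. This is no separate support for the low levels of KO3 and KO5 already described: in Bglap and Bglap2 it also holds the higher levels of WT3 and WT4 than of WT1 and WT2, the list was made with these counts known, KO3 and KO5 are the only Shank3Δ11(-/-) mice of high Xist, and Xist level and the other differences between these mice and KO1, KO2 and KO4 cannot be told apart.

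**Figure D4:**
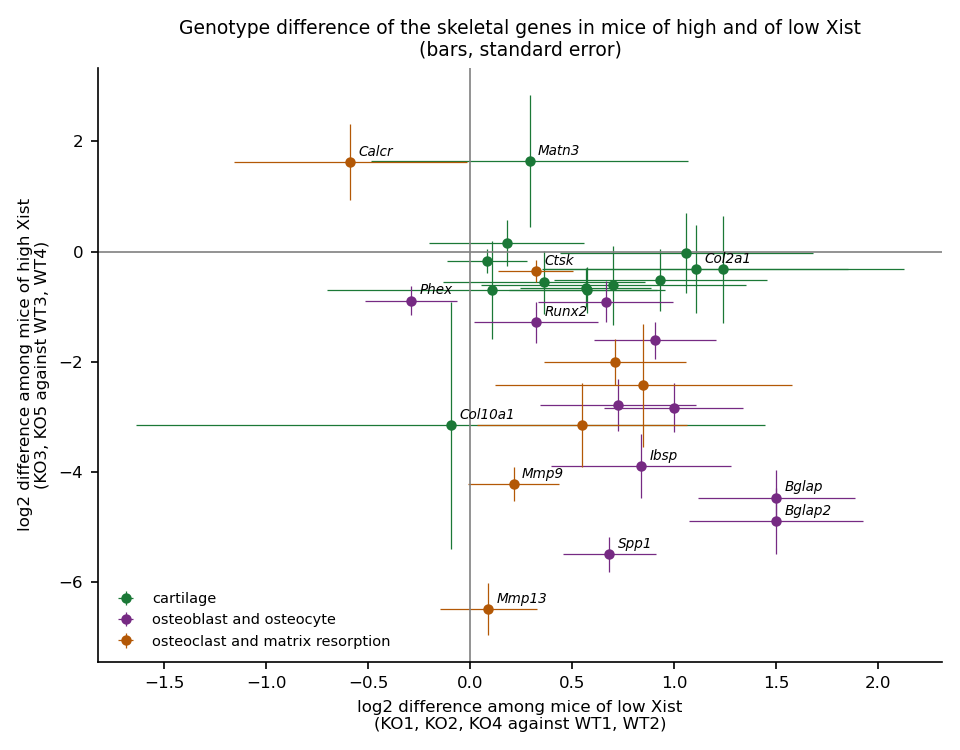
Each point is a member tested in the 9 mice except Dcstamp, with the log2 difference of Shank3Δ11(-/-) from Shank3(+/+) among mice of low Xist on the horizontal axis and among mice of high Xist on the vertical axis, and standard errors as bars. Spp1, Bglap, Bglap2, Mmp9 and Mmp13 lie below -4 on the vertical axis and at or above 0 on the horizontal one.

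Other genes of the same tissues were read from separate lists. Of 31 other bone-forming genes tested in the 7 mice, 26 were lower and 5 higher in Shank3Δ11(-/-), their median log2 fold change was -0.19, and 3 passed an unadjusted p below 0.05: Col13a1 (-0.44, standard error 0.17) and Col22a1 (-0.40, standard error 0.16), both collagens that muscle also makes, and the pyrophosphate-forming enzyme Enpp1 (-0.48, standard error 0.20). All had an edgeR FDR of 1.00. KO3 and KO5 were the 2 lowest mice in 10 of the 31, or 32.3%. Named after their values were seen, these included the osteoblast factor Dlx5, with 0 CPM in KO3 and 0.0750 CPM in KO5 against 0.555 to 1.38 CPM in the other mice. Tnfsf11, the ligand RANKL that osteoclasts need to form, was at 0 CPM in KO3 and 0.0375 CPM in KO5 against 0.294 to 1.63 CPM. Col1a1, the main collagen of bone but also of tendon and muscle connective tissue, was at 8198 CPM in KO3 and 6637 CPM in KO5, with a log2 fold change of -0.05. Col1a1 was highest in KO4, at 12894 CPM, and was at 5115 to 10187 CPM in Shank3(+/+).

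Of 22 other osteoclast genes tested, 12 were higher and 10 lower, the median log2 fold change was 0.03, and edgeR gave 0 genes with an unadjusted p below 0.05. KO3 and KO5 were the 2 lowest mice in 1 of the 22, the osteoclast receptor Oscar, at 0.126 and 0.413 CPM against 0.620 to 1.02 CPM. Most of these genes, such as the receptor Csf1r and the pump subunit Tcirg1, are made by other cells too. Of 18 other cartilage genes tested, 12 were higher and 6 lower, and 1 passed an unadjusted p below 0.05, the matrilin Matn4 (-0.81, standard error 0.22, edgeR FDR = 1.00). Matn4 was at 6.27, 9.51 and 5.55 CPM in KO1, KO3 and KO5, 9.14 CPM in KO2 and 20.2 CPM in KO4, and at 10.5 to 16.7 CPM in Shank3(+/+). KO4 was the highest mouse in 10 of the 18. Panx3, a channel of enlarged chondrocytes and osteoblasts, was the one gene of these 18 with KO3 and KO5 lowest, at 0.189 and 0.225 CPM against 0.493 to 2.48 CPM.

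Markers of other cell types were read beside these results. The 12 macrophage genes summed to 210.4 CPM in KO3 and 287 CPM in KO5 against 222 to 285 CPM in Shank3(+/+), and KO3 and KO5 were the 2 lowest mice in 0 of the 12. The 12 neutrophil genes summed to 5.73 CPM in KO3 and 11.1 CPM in KO5 against 7.11 to 20.1 CPM in the other mice. The 11 tendon genes summed to 2539 CPM in KO4 and to 1477 to 2203 CPM in the others, and KO4 was the highest mouse in 7 of the 11. KO1 had the highest erythroid sum, 5794 CPM against 1214 to 2197 CPM, and KO5 the highest adipocyte sum, 2046 CPM against 644 to 1007 CPM. In mean log2 level the adipocyte list was at 3.92 in KO5 and 1.48 in KO1, against -1.31 to 0.10 in the other mice. The 10 genes of skin epidermis had mean log2 levels of -1.22, -0.95, 0.41, 0.59 and 0.88 in KO1 to KO5, and -0.69 to 1.49 in Shank3(+/+). The 12 muscle genes varied by -0.10 to 0.12 in mean log2 level. The part of these cell types in the skeletal levels was not tested.

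**Figure D5:**
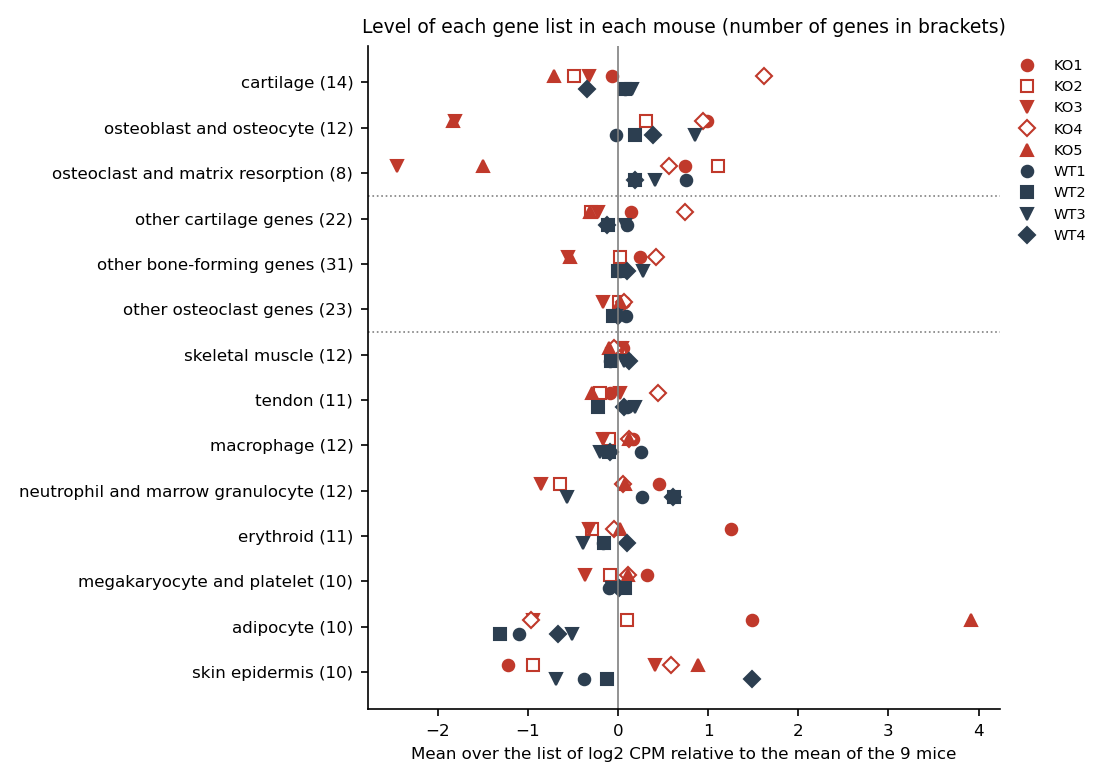
Points give, for each gene list, the mean log2 CPM of its genes in each mouse relative to the mean of the 9 mice, with KO2 and KO4 open. KO3 and KO5 are far to the left in the osteoblast and osteoclast classes, less so in the other bone-forming genes, and inside the range of the other mice in the macrophage list. All mice lie between -0.10 and 0.12 in the muscle list. KO4 is to the right in the cartilage, other cartilage, other bone-forming and tendon lists.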

How the data were processed

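RNA of the gastrocnemius of 9 mice was sequenced, 1 library per mouse. Values, as deposited, are raw counts of reads per Ensembl gene: the authors mapped to mm10 with HISAT2 and, from concordantly mapped reads alone, counted with featureCounts, with no pooling. Strandedness, annotation release and the treatment of multi-mapped reads were not given in the sources used here. Litters are not given, so p-values measure the spread between these mice. Symbols were found for 55144 of 55471 IDs, and positions, exon lengths and overlaps came from GENCODE M21.

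Genes were filtered with filterByExpr (minimum count 10, minimum total 15) and tested with edgeR 4.0.16 in R 4.3.3 (TMM, robust quasi-likelihood, 2-sided, Benjamini-Hochberg over all genes tested). This procedure was tried on simulated counts of 3 against 4 mice, at the study's threshold. With 2-fold changes it called 141 of 199 changed genes and 58 unchanged ones. With 4-fold changes it called 188 of 197 changed genes and 55 unchanged ones. CPM are TMM-scaled, and log2 levels used a prior count of 2. Limits for 0 counts take 3 counts per library. Standard errors are those of the fitted model. Alternatives were all 9 mice, no filter, DESeq2 size factors, DESeq2 1.42.0, limma-voom (limma 3.58.1), the replicate number as a block, Xist as a covariate, and each mouse left out. Values by Xist level and the fits without KO2 or without KO4 were added after seeing the data. The members, the lists and the division into classes were chosen with earlier results of these data known. Named genes were all 34 members and, of each other skeletal list, up to 3 per direction with p below 0.05, and Dlx5, Tnfsf11, Col1a1, Oscar, Panx3, Csf1r and Tcirg1 were named outside this rule, after their values were seen. Promoters came from RefSeq (GRCm38.p6). Figures were drawn with matplotlib 3.10.9. Results for some single genes of these lists are left out of the text.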

Additional observations from a re-analysis of the deposited data

Results flagged for a closer look

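KO4 stood apart from the other 4 Shank3Δ11(-/-) mice, by Dixon's criterion, in 8 cartilage genes. Its levels were 132 CPM in Col2a1, 10.5 CPM in Col9a1, 11.6 CPM in Col9a3, 7.02 CPM in Col10a1, 197 CPM in Col11a2, 1.8 CPM in Matn1, 19.1 CPM in Comp and 14.9 CPM in Hapln1. KO4 also had the deepest library, 40471957 counts, the highest share of mitochondrial counts, 7.88% against 3.81% to 6.54% in the other mice, and the highest tendon sum. Phex in WT4, at 4.70 CPM, lay below the other 3 wildtype mice, and Mepe in KO1, at 0.125 CPM or 4 counts, above the other Shank3Δ11(-/-) mice. In all 10 of 68 gene and genotype groups were outlying, and chance gives about 1 in 20. Genes of a class are measured in the same libraries, so these groups are not independent.

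In 5 members an interaction term of genotype with high or low Xist passed an FDR of 5% in edgeR over the 9 mice. The genotype difference among mice of high Xist minus that among mice of low Xist was -6.18 in Spp1 (FDR = 1.07e-04), -5.97 in Bglap (FDR = 0.00715), -6.40 in Bglap2 (FDR = 0.0120), -4.43 in Mmp9 (FDR = 0.00126) and -6.58 in Mmp13 (FDR = 0.0011) on the log2 scale. Both mice of high Xist were lower in Shank3Δ11(-/-) than both wildtype mice in each. The division was chosen after the data were seen and its Shank3Δ11(-/-) mice of high Xist are KO3 and KO5, already known to be low in these genes. In Bglap and Bglap2 the wildtype mice of high Xist were also above those of low Xist. These values are no test independent of the observation that prompted the division.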

How the results depend on the processing

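The number of members lower in Shank3Δ11(-/-) at an unadjusted p below 0.05, 1 in the 7 mice, was 0 with all 9 mice, 2 of 28 in DESeq2 (0.67% of all genes), 7 in limma-voom (0.908%), 3 with the replicate block (1.81%), 3 with Xist as a covariate (1.39%) and 0 with all mice but KO2 (1.28%). It ranged from 0 to 18 when each mouse was left out, with 18 without KO1 (2.07%), 3 without WT4 (0.775%), and 0 without KO5, WT2 or WT3. The number called ranged from 0 to 6, with 6 without KO1, and was 0 under each alternative that kept KO1. No member was higher at p below 0.05 under any of these. The cartilage level difference, -0.36, was 0.015 with all 9 mice and 0.14 with all mice but KO2, and ranged from -0.51 to -0.19 with mice left out. The osteoblast difference, -1.24, was -0.63 with all 9 mice and ranged from -2.17 to -0.76 with mice left out, and the osteoclast difference, -1.46, was -0.69 with all 9 mice and ranged from -2.37 to -0.76. As the log2 of summed CPM these were -1.97 and -0.51. Of 30 members, 16 changed sign with all 9 mice and 11 without KO5, as did 14 of 29 with all mice but KO2, and 0 with no filter, DESeq2 size factors or DESeq2. Same-numbered mice of both genotypes correlated at 0.37, 0.05, 0.36 and 0.10 in their deviations, and mice of unlike number at -0.44 to 0.28. Since not every value is above 0.1 and the labels name nothing shared, pairing was not assumed, although KO1, KO3 and KO4 each correlated best with the wildtype mouse of their number. With limma-voom the fold changes of Spp1 and Mmp13 were -3.24 and -4.15 on the log2 scale, against -0.55 and -0.90. The cause of these shifts was not tested. Depth limits Mepe, Sost, Matn1, Ocstamp and Dcstamp, with few counts in most mice.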
